A study of Homo sapiens with 9 samples.

Results

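Aminoacyl-tRNA synthetases join each amino acid to its tRNA. The set examined here was taken from the gene symbols of the deposited count table by name (1 letter for the amino acid followed by ARS, with EPRS, FARSA, FARSB and TARSL2 added), a rule that uses no measured value. It held 38 of the 11350 genes in the table: 19 cytosolic synthetases, 2 (GARS and KARS) whose single gene serves cytosol and mitochondria, and 17 mitochondrial synthetases. TARSL2, now named TARS3, ends in 2 but is a cytosolic threonyl-tRNA synthetase and was counted as such.

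RNA was sequenced from untreated HCT116 cells, a human colorectal carcinoma line, in 3 forms with 3 libraries each. HUWE1-P cells were the parental cells. In the edited lines, CRISPR replaced a part of the endogenous gene of the ubiquitin ligase HUWE1 with an inserted coding sequence. At the active site it encodes cysteine again in the control line HUWE1-WT and serine in HUWE1-CS. By the paper's methods, the insert also brings resistance to blasticidin, and the clones were selected with this drug and puromycin. Both edited lines therefore differ from HUWE1-P cells by the insert and the selection as well. All 3 lines were grown in the same medium, to which non-essential amino acids had been added. Whether the 3 libraries of an edited line came from 1 clone or several is not given in the sources used here, so p-values measure the spread between these libraries, and an effect of the mutation cannot be told apart from one of a clone.

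Each cell carries one set of synthetases for cytosolic ribosomes and another for mitochondrial ribosomes, and both are encoded in the nucleus. Several cytosolic enzymes sit together in the multisynthetase complex, held by the scaffold proteins AIMP1, AIMP2 and EEF1E1. When uncharged tRNA accumulates, the kinase GCN2 (EIF2AK4) phosphorylates eIF2α, and the transcription factor ATF4 then raises genes of amino acid import and synthesis together with many of the cytosolic synthetases.

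The element through which ATF4 acts, a C/EBP-ATF site with the core TGATGNAA, was searched on both strands of RefSeq promoter windows (250 bases before to 50 after a gene's start, GRCh38.p14). Windows were found for 30 of the 38 synthetases. AARS2, DARS, LARS, TARSL2, VARS, VARS2 and YARS were among those without one. The core stood in the windows of 8 synthetases (AARS, CARS, GARS, IARS, MARS, NARS, TARS and YARS2) and in 3.62% of all 35116 windows. The 5 in which it began within 15 bases of the start are shown with the core in capitals, each in the gene's own direction and named with the position of its first base relative to the start. The core reads TTGCATCA where it lies on the other strand.
CARS (cysteine; -2; chr11:3057407-3057436, minus strand): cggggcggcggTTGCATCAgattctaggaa
IARS (isoleucine; -13; chr9:92293692-92293721, minus strand): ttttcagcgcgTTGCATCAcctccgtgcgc
MARS (methionine; -4; chr12:57488053-57488082, plus strand): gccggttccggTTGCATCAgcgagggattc
NARS (asparagine; 14; chr18:57621804-57621833, minus strand): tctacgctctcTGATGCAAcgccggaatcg
TARS (threonine; 2; chr5:33440956-33440985, plus strand): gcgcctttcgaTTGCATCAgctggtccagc

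A second stretch is shown because both histidyl-tRNA synthetase genes start in it. HARS, the cytosolic enzyme, is read to the left from position 140691370 and HARS2, the mitochondrial enzyme, to the right from position 140691455, 85 bases away. The bases from one start to the other are in capitals, in the direction of HARS2.
HARS and HARS2 (chr5:140691350-140691475, plus strand, GRCh38.p14): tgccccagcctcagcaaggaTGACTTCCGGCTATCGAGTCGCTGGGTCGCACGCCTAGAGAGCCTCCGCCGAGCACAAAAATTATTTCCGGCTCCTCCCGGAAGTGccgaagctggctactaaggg

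Library totals lay between 1610984 and 2060349 counts, and the 38 synthetases took between 0.560% and 0.584% of them. A single synthetase had between 7 counts (WARS2 in a HUWE1-CS library) and 1058 counts (IARS). Levels are given as CPM, counts relative to library size after TMM scaling of the libraries, at which 3 counts are worth between 1.45 and 1.86 CPM; such limits cover counting error only. Fold changes are log2 values from a single edgeR quasi-likelihood fit of all genes and libraries. A gene is called where its false discovery rate (FDR, Benjamini-Hochberg adjustment over the 11350 genes) does not exceed 0.01. HUWE1 itself was lower in HUWE1-CS than in HUWE1-P cells (-0.69, adjusted p = 1.06e-15, edgeR) and HUWE1-WT cells (-0.48, adjusted p = 4.68e-09, edgeR), which does not show the codon exchange. Its means were 543 ± 19.8 CPM in HUWE1-P, 469 ± 25.8 in HUWE1-WT and 336 ± 11.7 in HUWE1-CS cells (SD, n = 3 each). HUWE1-WT against HUWE1-P cells gave -0.21, not called (adjusted p = 0.354, edgeR). Of the 8 epithelial markers listed, 7 were in the table. In HUWE1-CS cells KRT8 and KRT18 were called lower and CDH1, EPCAM and ELF3 higher, against both controls. This was 71.4% of the 7, beside 17.0% of all genes against HUWE1-P and 15.5% against HUWE1-WT cells. Of the 10 markers of blood, endothelial and stromal cells, the table listed ACTA2, at 1.97 ± 1.37 CPM in HUWE1-P, 4.72 ± 0.695 CPM in HUWE1-WT and 8.32 ± 0.696 CPM in HUWE1-CS cells (SD, n = 3 each), and COL1A1, at 22.2 ± 2.75, 21.1 ± 3.98 and 11.4 ± 3.12 CPM in the same order. ACTA2 was called higher against HUWE1-P cells (2.01, adjusted p = 3.84e-04, edgeR) and COL1A1 lower against both controls (-0.96 and -0.88, adjusted p = 9.01e-04 and 0.00346, edgeR); their part in the results was not tested.

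Against HUWE1-P cells, 7 of the 38 synthetases were called in HUWE1-CS cells (18.4%), against a background of 17.0% of all genes. LARS, QARS, HARS2 and IARS2 rose, and FARSB, VARS and YARS fell, where the background was 8.46% of genes higher and 8.58% lower. The median log2 fold change over the 38 was -0.01, as it was over all genes, but the median size of the change without its sign was 0.114 against 0.223 for all genes. That size was 0.102 over the cytosolic and shared genes and 0.249 over the mitochondrial genes, and all genes were not matched to either group by level. The same sizes against HUWE1-WT cells were 0.0806 and 0.126, beside 0.220 for all genes. Against HUWE1-WT cells 5 were called (13.2%, background 15.5%): HARS2, QARS and TARS2 higher (background 7.42%) and FARSB and VARS lower (background 8.08%). Scaling by total counts instead gave 2 higher (HARS2 and QARS) and 3 lower (FARSB, VARS and YARS). FARSB, VARS, QARS and HARS2 were called against both controls, and 30 synthetases against neither; across all genes 12.2% were called against both. The comparisons share the HUWE1-CS libraries. Against HUWE1-P cells the 21 cytosolic and shared genes held 5 calls (2 higher, 3 lower; 19.2% of all genes within their range of mean CPM were called), and the 17 mitochondrial genes held 2, both higher (16.2% in their range).

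**Figure D1:**
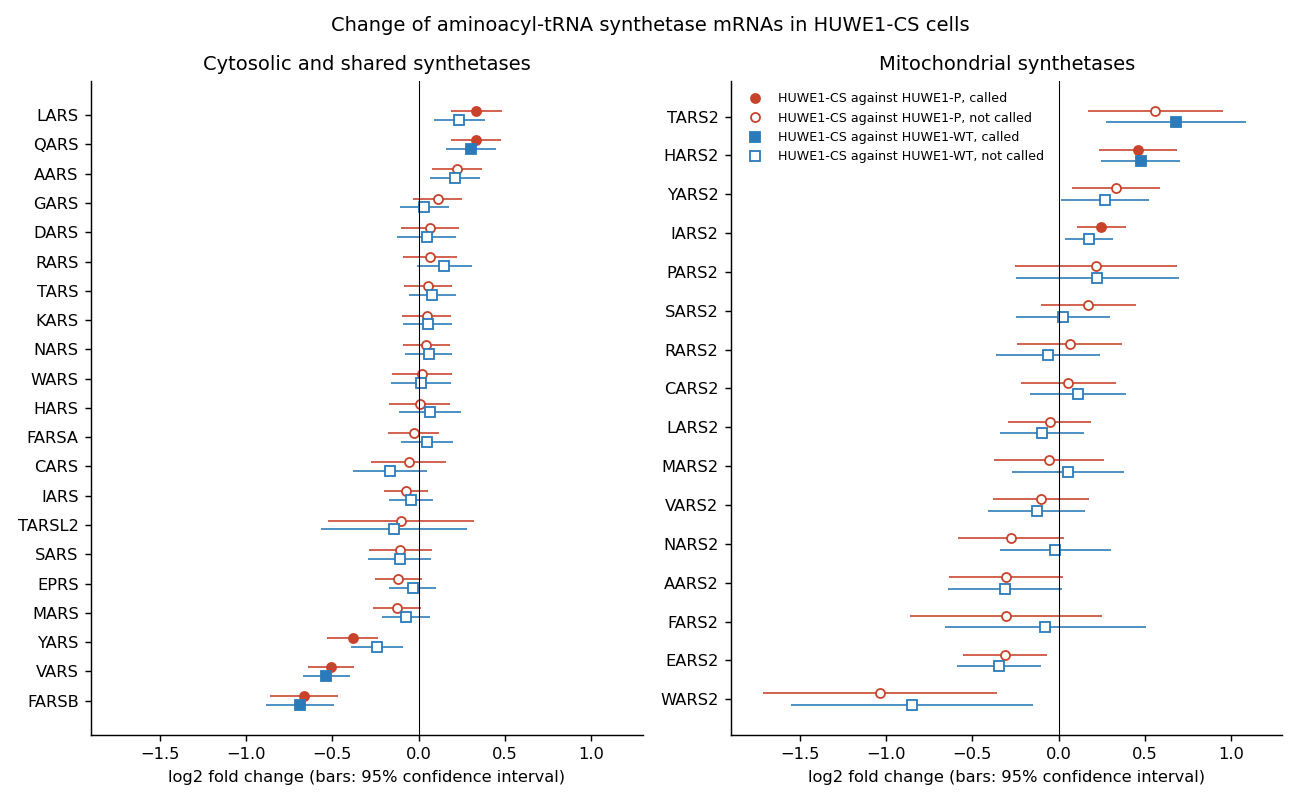
Log2 fold change (x axis) of 37 synthetase mRNAs in HUWE1-CS against HUWE1-P cells (red circles) and HUWE1-WT cells (blue squares), with 95% confidence intervals as bars. Filled symbols are called at an FDR of at most 0.01; the 16 cytosolic and shared genes not called against HUWE1-P cells lie between -0.12 (MARS) and 0.22 (AARS) in that comparison, and WARS2, FARS2 and PARS2 have the widest intervals of the genes shown.

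Between the control lines HUWE1-WT and HUWE1-P, edgeR called 0 of the 38 synthetases and 7 of all genes (0.0617%; 0.00881% higher and 0.0529% lower). None of the 38 had an unadjusted p under 0.05 by edgeR or by DESeq2, which called 0 as well. Their log2 fold changes ran from -0.26 (NARS2) to 0.15 (SARS2).

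Phenylalanyl-tRNA synthetase is built of an α chain, FARSA, and a β chain, FARSB, and the mRNAs of its chains differed in HUWE1-CS cells. FARSB (Entrez identifier 10056; chromosome 2, 223431618 to 223520811, minus strand, GRCh37) was at 151, 123 and 160 CPM in the HUWE1-P libraries, 130, 166 and 145 CPM in the HUWE1-WT libraries and 89.6, 93.6 and 91.2 CPM in the HUWE1-CS libraries. Each HUWE1-CS library lay below all 6 controls, and the 3 were within a few CPM of each other. FARSB fell by 37.0% against HUWE1-P cells (log2 fold change -0.67 with standard error 0.0986; adjusted p = 4.22e-08, edgeR) and by 37.9% against HUWE1-WT cells (-0.69, adjusted p = 1.98e-08, edgeR). It was the largest fall among the called synthetases. A processed pseudogene of FARSB is annotated, and how reads shared with it were counted is not given in the sources used here. FARSA was at 230, 231 and 226 CPM in HUWE1-P, 203, 219 and 228 CPM in HUWE1-WT and 225, 241 and 207 CPM in HUWE1-CS libraries, which overlapped, with a log2 fold change of -0.03 against HUWE1-P cells (95% confidence interval -0.18 to 0.12; adjusted p = 0.820, edgeR). The ratio of FARSB to FARSA counts within a library was 0.632 ± 0.0909 (SD, n = 3) in HUWE1-P cells, 0.678 ± 0.0697 in HUWE1-WT cells and 0.409 ± 0.0282 in HUWE1-CS cells. This and the other ratios between synthetases were chosen after the values were seen and are given without a test.

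VARS, the cytosolic valyl-tRNA synthetase (Entrez identifier 7407; chromosome 6, 31745295 to 31763529, minus strand), had the smallest p-value of the set. Its level was 482, 453 and 434 CPM in HUWE1-P, 477, 453 and 462 CPM in HUWE1-WT and 323, 347 and 290 CPM in HUWE1-CS libraries. The control lines covered the same range, and all 3 HUWE1-CS libraries lay far below it. VARS fell by 29.7% against HUWE1-P cells (log2 fold change -0.51 with standard error 0.0673; adjusted p = 1.45e-09, edgeR) and by 31.0% against HUWE1-WT cells (-0.53, adjusted p = 2.95e-10, edgeR).

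YARS, the cytosolic tyrosyl-tRNA synthetase (Entrez identifier 8565; chromosome 1, 33240838 to 33283632, minus strand), was at 250, 257 and 255 CPM in HUWE1-P libraries, 238, 220 and 233 CPM in HUWE1-WT libraries and 190, 187 and 207 CPM in HUWE1-CS libraries. The HUWE1-CS libraries were again below every control, and the HUWE1-WT libraries lay between the other lines. YARS fell by 23.3% against HUWE1-P cells (log2 fold change -0.38 with standard error 0.0739; adjusted p = 2.13e-05, edgeR). The comparison with HUWE1-WT cells gave -0.24 (adjusted p = 0.0109, edgeR) and missed the threshold, which it passed without HUWE1-CS replicate 3 (-0.28, adjusted p = 0.00954, edgeR).

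**Figure D2:**
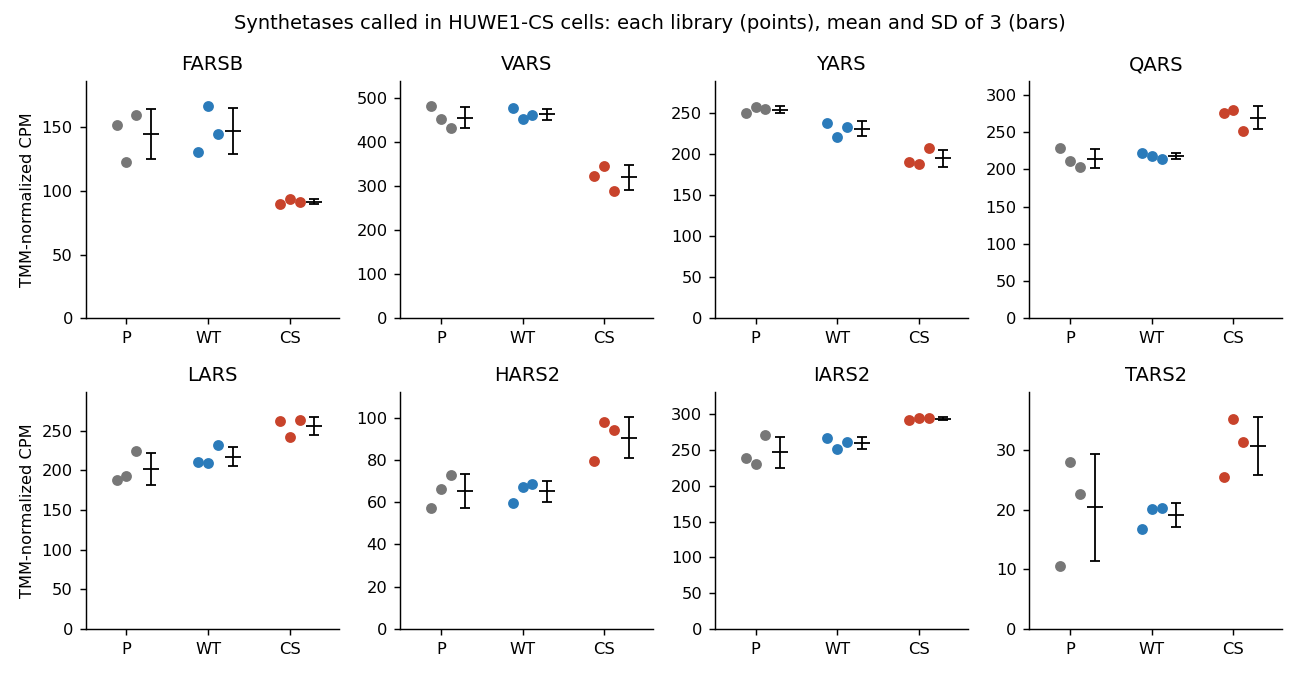
TMM-normalized CPM (y axis, from 0) of the 8 synthetases called in HUWE1-CS cells against either control; points are the 3 libraries of each line (P, WT, CS) and bars the mean and SD. The HUWE1-CS points of FARSB, VARS and YARS lie below all 6 controls, those of QARS, LARS, HARS2 and IARS2 lie above them, and those of TARS2 overlap HUWE1-P cells.

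QARS and LARS, the glutaminyl- and leucyl-tRNA synthetases, are members of the multisynthetase complex and were the cytosolic synthetases called higher. QARS (Entrez identifier 5859; chromosome 3, 49133365 to 49142563, minus strand) was at 228, 212 and 203 CPM in HUWE1-P, 222, 218 and 214 CPM in HUWE1-WT and 276, 280 and 252 CPM in HUWE1-CS libraries. Every HUWE1-CS library exceeded all 6 controls. The log2 fold change was 0.33 against HUWE1-P cells (standard error 0.0728, adjusted p = 1.73e-04, edgeR) and 0.31 against HUWE1-WT cells (adjusted p = 7.02e-04, edgeR). LARS (Entrez identifier 51520; chromosome 5, 145490129 to 145562259, minus strand), which also acts as a leucine sensor upstream of mTORC1, was at 187, 193 and 225 CPM in HUWE1-P, 211, 209 and 231 CPM in HUWE1-WT and 262, 243 and 263 CPM in HUWE1-CS libraries. The highest control library came close to the lowest HUWE1-CS library, without overlap. LARS rose by 0.34 against HUWE1-P cells (standard error 0.0753, adjusted p = 2.67e-04, edgeR). The comparison with HUWE1-WT cells gave 0.24 (adjusted p = 0.0132, edgeR), not called, and was called without HUWE1-CS replicate 2 (0.28, adjusted p = 0.00653, edgeR).

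The other 6 enzymes of the complex were not called. Their log2 fold changes against HUWE1-P cells were 0.07 for DARS (aspartate), 0.07 for RARS (arginine), 0.05 for KARS (lysine), -0.07 for IARS (isoleucine), -0.12 for EPRS, which charges both glutamate and proline, and -0.12 for MARS (methionine). MARS and DDIT3 share 60 exonic bases on opposite strands, and the use of strand in counting is not given in the sources used here; DDIT3 was at no more than 10.1 ± 1.87 CPM (SD, n = 3) in any line. Summed over the 8 enzymes, the complex gave a mean of 2204 ± 24.7 CPM for HUWE1-P, 2174 ± 64.6 CPM for HUWE1-WT and 2265 ± 38.5 CPM for HUWE1-CS libraries (SD, n = 3 each), with overlapping libraries. Of the 3 scaffold proteins, EEF1E1, the smallest, fell from 64.4 ± 4.89 to 45.4 ± 2.92 CPM (SD, n = 3 each; log2 fold change -0.50, adjusted p = 0.00204, edgeR); against HUWE1-WT cells, at 59.0 ± 4.05 CPM, it was -0.38 and not called (adjusted p = 0.0269, edgeR). AIMP1 (0.19) and AIMP2 (0.13) were not called.

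Outside the complex, AARS, the alanyl-tRNA synthetase, came closest to the threshold. Its libraries read 225, 210 and 248 CPM in HUWE1-P, 221, 222 and 247 CPM in HUWE1-WT and 258, 281 and 261 CPM in HUWE1-CS cells. The HUWE1-CS libraries exceeded the controls by a small margin. The difference was 0.22 against HUWE1-P cells (adjusted p = 0.0153, edgeR) and 0.21 against HUWE1-WT cells (adjusted p = 0.0242, edgeR), and against HUWE1-P cells it was called without HUWE1-P replicate 3 (0.30, adjusted p = 0.00629, edgeR). The remaining enzymes of this group were not called against either control: CARS (cysteine), HARS (histidine), NARS (asparagine), SARS (serine), TARS (threonine), TARSL2 (threonine), WARS (tryptophan), FARSA and the shared GARS (glycine). Their log2 fold changes against HUWE1-P cells ran from -0.11 (SARS) to 0.11 (GARS). For 15 of the 16 cytosolic and shared genes not called against HUWE1-P cells, the 95% confidence interval of the log2 fold change lay within 0.4 of 0 on both sides; the exception was TARSL2, the least abundant of them (-0.52 to 0.32).

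HARS2 charges mitochondrial histidine tRNA and shares its promoter stretch, printed above, with HARS. HARS2 (Entrez identifier 23438; chromosome 5, 140071015 to 140078890, plus strand, GRCh37) was at 57.1, 66.2 and 72.8 CPM in HUWE1-P libraries, 59.7, 67.1 and 68.6 CPM in HUWE1-WT libraries and 79.5, 98.1 and 94.1 CPM in HUWE1-CS libraries. All 3 HUWE1-CS libraries were above the controls. HARS2 rose by 0.46 against HUWE1-P cells (standard error 0.114, adjusted p = 9.93e-04, edgeR) and by 0.48 against HUWE1-WT cells (adjusted p = 7.85e-04, edgeR). Against HUWE1-P cells the call was lost without HUWE1-P replicate 1 (0.38, adjusted p = 0.0202, edgeR) and without HUWE1-CS replicate 2 (0.41, adjusted p = 0.0130, edgeR). Against HUWE1-WT cells it was lost without HUWE1-CS replicate 2 (0.42, adjusted p = 0.0109, edgeR). HARS, read from the same 85 bases in the other direction, was at 135, 138 and 132 CPM in HUWE1-P, 122, 143 and 123 CPM in HUWE1-WT and 129, 135 and 142 CPM in HUWE1-CS libraries, which overlapped (0.01 against HUWE1-P cells, 95% confidence interval -0.17 to 0.18; adjusted p = 0.974, edgeR). The ratio of HARS2 to HARS counts was 0.485 ± 0.0646, 0.506 ± 0.0470 and 0.669 ± 0.0562 (SD, n = 3) in the 3 lines, and all HUWE1-CS libraries exceeded all controls. Synthetases besides these with an oppositely read neighbour starting within 1000 bases were YARS (S100PBP), EARS2 (UBFD1), KARS (TERF2IP), SARS2 (MRPS12), FARS2 (LYRM4) and RARS2 (ORC3); none of these neighbours was called against either control.

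IARS2, the mitochondrial isoleucyl-tRNA synthetase (Entrez identifier 55699; chromosome 1, 220267474 to 220321383, plus strand), was the most abundant mitochondrial member. It was at 238, 230 and 271 CPM in HUWE1-P, 267, 251 and 260 CPM in HUWE1-WT and 291, 295 and 295 CPM in HUWE1-CS libraries. The HUWE1-CS libraries agree closely and exceeded the controls, while HUWE1-P replicate 3 stood above the other HUWE1-P libraries. The log2 fold change of 0.25 against HUWE1-P cells was called (standard error 0.0707, adjusted p = 0.00466, edgeR), and that of 0.18 against HUWE1-WT cells was not (adjusted p = 0.0525, edgeR). The call was lost without HUWE1-P replicate 1 (0.23, adjusted p = 0.0345), without HUWE1-P replicate 2 (0.20, adjusted p = 0.0558), without HUWE1-CS replicate 1 (0.25, adjusted p = 0.0137) and without HUWE1-CS replicate 3 (0.25, adjusted p = 0.0107, edgeR throughout).

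TARS2, the mitochondrial threonyl-tRNA synthetase (Entrez identifier 80222; chromosome 1, 150459890 to 150480078, plus strand), had few counts: 17, 50 and 47 in HUWE1-P libraries, 29, 37 and 35 in HUWE1-WT libraries and 43, 62 and 54 in HUWE1-CS libraries. In CPM these were 10.6, 28.1 and 22.6, then 16.8, 20.2 and 20.4, then 25.5, 35.2 and 31.4. HUWE1-P replicate 1 was the lowest of all libraries, and HUWE1-P replicate 2 overlapped the HUWE1-CS range. TARS2 rose by 0.68 against HUWE1-WT cells (standard error 0.203, adjusted p = 0.00773, edgeR) and was 0.56 against HUWE1-P cells (standard error 0.198, adjusted p = 0.0256, edgeR), not called. The call against HUWE1-WT cells was lost without HUWE1-WT replicate 1 (0.60, adjusted p = 0.0414), replicate 2 (0.73, adjusted p = 0.0134) or replicate 3 (0.73, adjusted p = 0.0149), and without HUWE1-CS replicate 2 (0.58, adjusted p = 0.0655) or replicate 3 (0.68, adjusted p = 0.0224, edgeR throughout). Against HUWE1-P cells the value depended on the HUWE1-P libraries: it was 0.29 without replicate 1 (adjusted p = 0.328) and 0.83, with a call, without replicate 2 (adjusted p = 0.00336, edgeR).

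WARS2, which charges mitochondrial tryptophan tRNA (Entrez identifier 10352; chromosome 1, 119573839 to 119683277, minus strand), had the lowest fold change of the set and the fewest counts. It had 16, 22 and 21 counts in HUWE1-P, 15, 22 and 13 in HUWE1-WT and 7, 11 and 9 in HUWE1-CS libraries. The HUWE1-CS libraries were below every control, but the differences of -1.04 against HUWE1-P cells (95% confidence interval -1.72 to -0.36; adjusted p = 0.0162, edgeR) and of -0.85 against HUWE1-WT cells (adjusted p = 0.0680, edgeR) missed the threshold. EARS2, the mitochondrial glutamyl-tRNA synthetase, had 73.2, 60.1 and 69.9 CPM in HUWE1-P, 70.7, 71.4 and 65.7 CPM in HUWE1-WT and 52.2, 56.1 and 55.2 CPM in HUWE1-CS libraries, also below every control (-0.31, adjusted p = 0.0510; against HUWE1-WT cells -0.35, adjusted p = 0.0301, edgeR). YARS2 (tyrosine) read 50.9, 46.6 and 47.7 CPM in HUWE1-P, 47.5, 50.2 and 54.1 CPM in HUWE1-WT and 59.3, 62.4 and 61.0 CPM in HUWE1-CS libraries, above every control (0.33, adjusted p = 0.0430, edgeR). Across the 38 synthetases, HUWE1-CS libraries lay beyond all 6 controls for 12 (31.6%), 6 above and 6 below, against 26.3% of all genes (12.9% above, 13.4% below). Beside those described, MARS was the only other one of the 12, on the lower side.

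The other 11 mitochondrial enzymes were not called against either control. They included AARS2 (alanine), CARS2 (cysteine), FARS2 (phenylalanine), LARS2 (leucine), MARS2 (methionine), NARS2 (asparagine), PARS2 (proline), RARS2 (arginine), SARS2 (serine) and VARS2 (valine). Their log2 fold changes against HUWE1-P cells lay between -0.31 (FARS2) and 0.22 (PARS2). Of the 15 mitochondrial genes not called against HUWE1-P cells, 6 had a 95% confidence interval within 0.4 of 0. Those of WARS2, EARS2, YARS2 and TARS2 did not include 0. Those of AARS2, FARS2, NARS2, PARS2 and SARS2 included 0 and reached past 0.4 on one side, so that a difference of that size was not distinguishable from none. SARS2 and VARS2 each overlap another annotated transcript on their own strand, so their counts are uncertain.

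Summed over the 17 genes, mitochondrial synthetase mRNA was 897, 899 and 931 CPM in HUWE1-P, 930, 916 and 903 CPM in HUWE1-WT and 962, 1004 and 948 CPM in HUWE1-CS libraries. All HUWE1-CS sums exceeded the control sums after TMM scaling. As shares of total counts they did not. There, HUWE1-CS replicate 3 (1632 of 1738126 counts) lay under HUWE1-WT replicate 1 (1605 of 1698007 counts). Without IARS2 the libraries overlapped (662 ± 5.33, 657 ± 12.3 and 678 ± 29.1 CPM, SD, n = 3), and without IARS2 and HARS2 the means were 597 ± 8.40, 592 ± 15.6 and 587 ± 26.6 CPM. The 21 cytosolic and shared genes gave 4838 ± 72.5, 4790 ± 97.5 and 4709 ± 18.2 CPM, and all 38 gave 5746 ± 79.9, 5707 ± 84.0 and 5680 ± 46.8 CPM in the same order of lines, with overlapping libraries in both sums. As shares of total counts, without TMM scaling, the 38 took 0.564%, 0.561% and 0.560% in the HUWE1-CS libraries. These lay below all controls, which ran from 0.569% to 0.584%. Whether the sums differ between lines thus depends on the scaling.

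**Figure D3:**
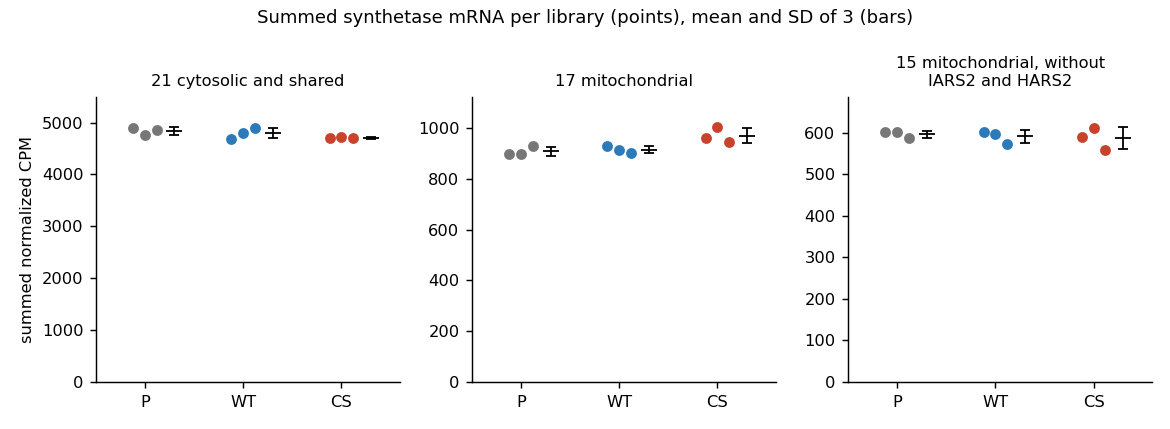
Summed normalized CPM (y axis, from 0) of the 21 cytosolic and shared synthetases, of the 17 mitochondrial synthetases and of 15 mitochondrial synthetases without IARS2 and HARS2; points are the 3 libraries of each line (P, WT, CS) and bars the mean and SD. The HUWE1-CS points stand above the controls in the middle panel alone.

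Most amino acids have a cytosolic and a mitochondrial enzyme from separate genes, and the levels of such pairs were set against each other within each library. The ratio of YARS to YARS2 counts was 5.25 ± 0.317 in HUWE1-P, 4.57 ± 0.383 in HUWE1-WT and 3.20 ± 0.195 in HUWE1-CS cells (SD, n = 3 each). The ratio of VARS to VARS2 was 9.36 ± 0.883, 9.45 ± 1.33 and 7.07 ± 0.595. That of IARS2 to IARS was 0.486 ± 0.0398, 0.522 ± 0.0250 and 0.611 ± 0.0462. QARS has no mitochondrial counterpart, since mitochondria make glutaminyl-tRNA by way of glutamyl-tRNA from EARS2, which is then amidated by the enzyme of QRSL1, GATB and GATC. The ratio of QARS to EARS2 was 3.18 ± 0.315, 3.15 ± 0.105 and 4.95 ± 0.360. In all 4 ratios the HUWE1-CS libraries lay beyond the 6 controls; in those of LARS to LARS2, TARS2 to TARS and AARS to AARS2 they overlapped. QRSL1 was -0.44 against HUWE1-P cells (adjusted p = 0.0216, edgeR) and GATB and GATC were 0.04 and 0.08, none of them called.

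**Figure D4:**
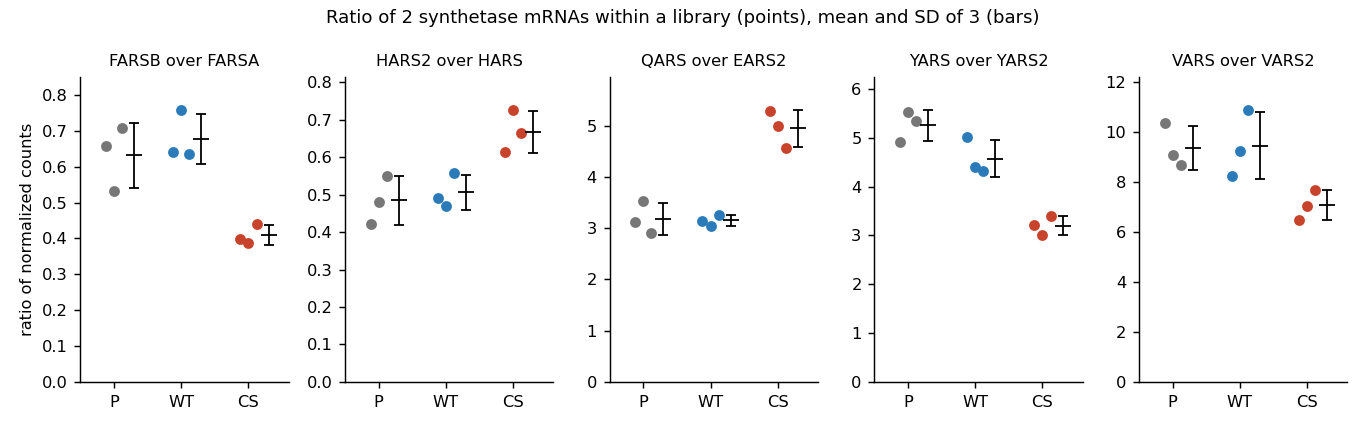
Ratio of the normalized counts of 5 synthetase pairs within a library (y axis, from 0); points are the 3 libraries of each line (P, WT, CS) and bars the mean and SD. The HUWE1-CS points lie below the controls for FARSB over FARSA, YARS over YARS2 and VARS over VARS2, and above them for HARS2 over HARS and QARS over EARS2.

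Levels of different genes were compared as normalized CPM per kilobase of the annotated transcript. In HUWE1-P cells the cytosolic and shared enzymes ran from 5.62 ± 0.788 (TARSL2) to 149 ± 11.1 CPM per kilobase (KARS), with a median of 87.5. The mitochondrial enzymes ran from 3.87 ± 0.482 (WARS2) to 69.8 ± 6.09 (IARS2), with a median of 13.7. IARS2 stood between the cytosolic HARS and SARS, and HARS2, CARS2, SARS2 and YARS2 between the cytosolic CARS and FARSB. The length taken for FARSB, 6761 bases, places it at 21.4 ± 2.87 CPM per kilobase, far under FARSA at 127 ± 1.55, and a shorter transcript would raise it. KARS and FARSA held ranks 1 and 2 and TARSL2 and WARS2 ranks 37 and 38 in all 3 lines. VARS, at rank 4 in HUWE1-P and 3 in HUWE1-WT cells, was at rank 12 in HUWE1-CS cells, while QARS went from rank 11 in both controls to rank 3. In HUWE1-CS cells QARS (110 ± 6.21) differed by less than the SD of either gene from NARS, IARS, TARS and GARS (107 ± 4.65), at ranks 4 to 7. Between ranks 3 and 10 in HUWE1-P cells, from IARS (113 ± 0.587) to MARS (96.0 ± 0.949), several neighbours such as NARS, YARS and TARS differed by less than their SD.

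**Figure D5:**
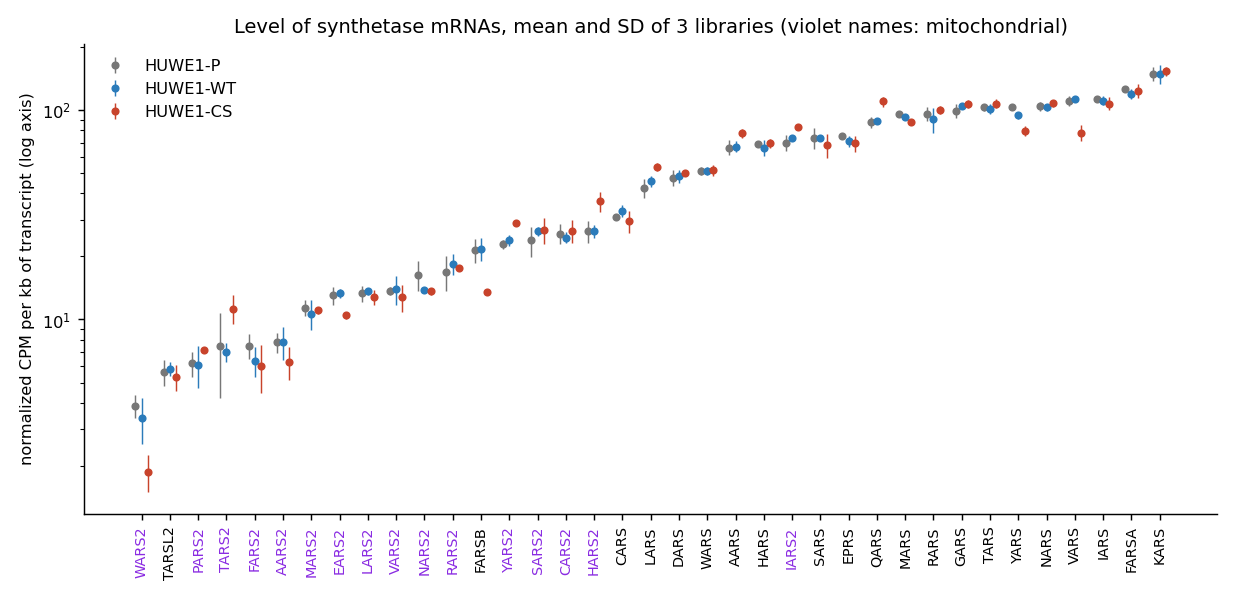
Normalized CPM per kilobase of transcript (y axis, log scale) of 37 synthetases, ordered by their level in HUWE1-P cells; points are the mean and bars the SD of 3 libraries of each line, and mitochondrial enzymes have violet names. Most mitochondrial names lie to the left, where the cytosolic TARSL2 and FARSB stand among them, IARS2 lies among the cytosolic enzymes, and the HUWE1-CS points of VARS, YARS and FARSB drop out of the order.

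Cytosolic and shared synthetases that general knowledge lists as ATF4 targets were 12: AARS, CARS, EPRS, the shared GARS, IARS, LARS, MARS, NARS, SARS, TARS, WARS and YARS. Against HUWE1-P cells LARS was called higher and YARS lower (16.7% of the 12, background 17.0%), with a median log2 fold change of -0.02 over the 12. Against HUWE1-WT cells edgeR called 0 of them, with 3 at an unadjusted p under 0.05, and DESeq2 called 0 as well. Their summed level was 2991 ± 53.6 CPM in HUWE1-P, 2958 ± 68.7 CPM in HUWE1-WT and 2976 ± 60.8 CPM in HUWE1-CS cells (SD, n = 3 each). Of the 9 cytosolic and shared genes not listed, 3 were called against each control (33.3%, backgrounds 17.0% and 15.5%), QARS higher and FARSB and VARS lower. None of the 8 synthetases whose promoter window holds the C/EBP-ATF core was called against either control by edgeR or DESeq2; AARS and YARS2 had an unadjusted p under 0.05 in both comparisons. The E-box CACGTG, searched in the same windows on both strands, stood in 5 of the 39 and in 7.26% of all windows. The 5 belonged to the 4 genes CARS2, EARS2, IARS and MARS2. None of these 4 genes was called by either tool, EARS2 alone having an unadjusted p under 0.05. At these backgrounds, counts of 0 among 8 and among 4 genes say little about genes with either motif. LARS, VARS and YARS had no window.

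ATF4 mRNA itself rose in HUWE1-CS cells to 551 ± 29.5 CPM from 443 ± 18.4 in the parental and 454 ± 7.23 in the HUWE1-WT line (SD, n = 3 each), by 0.32 (adjusted p = 3.51e-05, edgeR) and 0.28 (adjusted p = 2.98e-04, edgeR). Of the 32 genes outside the synthetases that were listed for the amino acid response and tested, ATF4 included, 7 rose and 4 fell against HUWE1-P cells (34.4%, background 17.0%), with a median of 0.01. Against HUWE1-WT cells 3 rose and 5 fell (25.0%, background 15.5%), with a median of -0.09. PCK2, the mitochondrial phosphoenolpyruvate carboxykinase, rose by 1.01 against HUWE1-P cells (adjusted p = 1.07e-06, edgeR) and by 0.72 against HUWE1-WT cells (adjusted p = 3.56e-04, edgeR). SESN2 rose by 0.67 against HUWE1-P cells (adjusted p = 0.00366, edgeR) and was 0.33 against HUWE1-WT cells (adjusted p = 0.179, edgeR), not called. The enzymes ASNS, PSAT1, PHGDH and MTHFD2 rose by 0.34, 0.32, 0.40 and 0.28 against HUWE1-P cells. Against HUWE1-WT cells MTHFD2 rose by 0.27, and ASNS (0.23), PSAT1 (0.23) and PHGDH (0.28) were not called (adjusted p = 0.0610, 0.0311 and 0.0355, edgeR). SHMT2, also an enzyme of this list, was called lower against both controls (-0.24 and -0.38, adjusted p = 0.00704 and 1.22e-05, edgeR). TRIB3 (-0.10 against HUWE1-P cells), CHAC1 (0.18) and DDIT3 (0.22) were called against neither control. The amino acid transporters SLC38A2, SLC7A5 and SLC7A1 were called against both controls and fell by 0.62, 0.40 and 0.53 on the log2 scale against HUWE1-P cells (adjusted p = 1.51e-15, 5.73e-08 and 3.91e-07, edgeR). SLC7A5 imports leucine and other large neutral amino acids. Among 14 sensors of amino acid shortage and eIF2 kinases and partners, EIF2AK1 rose and EIF2S1, EIF2B1 and PPP1R15B fell against HUWE1-P cells (28.6%, background 17.0%), and EIF2B1 and PPP1R15B fell against HUWE1-WT cells as well, where IMPACT rose; GCN2 (EIF2AK4) was 0.17 (adjusted p = 0.211, edgeR). WARS, known to be raised by interferon, was 0.02 (adjusted p = 0.907, edgeR), while 4 of 15 interferon-response genes tested were called higher and 2 lower against HUWE1-P cells (40.0%, background 17.0%). Against HUWE1-WT cells 5 of the 15 were called higher and 2 lower (46.7%, background 15.5%). The list held 25 genes, and IFIT1, IFIT2, IFIT3, MX1 and OAS1 were among those not in the count table.

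Among genes for other steps in the life of a tRNA, the shares called against HUWE1-P cells lay at or below the background of 17.0%. Of 25 genes for tRNA ends, splicing and export, POP1, a subunit of RNase P, fell from 95.7 ± 4.38 to 53.8 ± 5.48 CPM (SD, n = 3 each; -0.83, adjusted p = 4.13e-09, edgeR), and TSEN34 (0.47), LAGE3 (0.66) and TRPT1 (0.94) rose against HUWE1-P cells (16.0% called). Against HUWE1-WT cells POP1 (-0.86) and LAGE3 (0.48) were called, and TSEN34 (0.27, adjusted p = 0.0214) and TRPT1 (0.52, adjusted p = 0.0621, edgeR) were not. Of 17 genes for mitochondrial tRNA processing, MTO1 fell (-0.56, adjusted p = 0.00312, edgeR) and HSD17B10 rose (0.32, adjusted p = 0.00939, edgeR) against HUWE1-P cells (11.8% called). Against HUWE1-WT cells HSD17B10 was called (0.37, adjusted p = 0.00328, edgeR) and MTO1 was not (-0.24, adjusted p = 0.302, edgeR). Of 13 mitochondrial translation factors, TUFM, the elongation factor that carries charged tRNA to the mitochondrial ribosome, was the one called against either control (7.69%). It rose from 560 ± 13.2 CPM in HUWE1-P and 586 ± 12.4 CPM in HUWE1-WT to 753 ± 23.1 CPM in HUWE1-CS cells (SD, n = 3 each; 0.43 and 0.36, adjusted p = 6.15e-09 and 7.69e-07, edgeR). Of 6 genes tested for selenocysteine charging, SEPHS2 rose against HUWE1-P cells (0.40, adjusted p = 0.00408, edgeR; 16.7% called) and was 0.24 against HUWE1-WT cells (adjusted p = 0.10, edgeR), not called. Among the 4 tested genes that proofread charged tRNA and the 4 partners of mitochondrial charging, no gene passed the threshold in either comparison, and QRSL1 had the smallest adjusted p (0.0216 against HUWE1-P cells, edgeR).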

How the data were processed

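RNA-seq of polyadenylated RNA from 9 libraries of HCT116 cells was used, with lines and replicate numbers as the labels give them. The authors sequenced single-end reads, trimmed adapters, and, per the submitters' processing notes, used bcl2fastq 2.20 and STAR 2.5.4 with the hg19 assembly; the counter, its annotation and its use of strand are not given in the sources used here. The authors deposited raw counts per gene for 11350 genes, each with at least 41 counts over the 9 libraries. Their deposited comparison tables, made with edgeR 3.26.8, hold log2 fold changes, mean log2 CPM, F values, p-values and FDRs and were not used.

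Counts were analysed with R 4.3.3, edgeR 4.0.16 (TMM, glmQLFit and glmQLFTest with legacy = TRUE, all 9 libraries in 1 fit, line as the only term, no filter), limma 3.58.1 and DESeq2 1.42.0; Python 3.11.15 drew the figures. The threshold was an FDR of 0.01 over all genes. The biological coefficient of variation was 4.77%. Replicates differed by more than sampling noise (chi-square per degree of freedom 1.16 to 1.65), so no library was a duplicate. Same-numbered libraries deviated together weakly if at all (correlations of deviations from -0.02 to 0.06, and from -0.065 to 0.033 for different numbers). No pairing was used in the main fit. The edgeR procedure was run on simulated counts drawn with the spread fitted to these data. The planted changes were larger than several of those called here, and no clone differences were simulated, so the run cannot speak to either. Genes were placed with GENCODE on GRCh37.

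The family of genes to describe, the companion lists and the pairs were chosen with earlier results of these data known, the lists from general knowledge. Of the 38 members, 1 is counted but not reported here by itself; the others are named, and those called in any comparison, and the 3 of each compartment with the largest changes, have full values. From each companion list up to 4 genes with the smallest p-values were taken. Further members were named for their role or their call, most of them in the amino acid response. Genes with a like pattern were not sought, since the called members moved in both directions. Alternatives were DESeq2, limma-voom, other scalings, a count minimum of 10, other fits, a transcript length trend, the replicate block, an FDR of 0.05 and omission of each library.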

Additional observations from a re-analysis of the deposited data

How the results depend on the processing

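Across 21 alternatives, FARSB, VARS and QARS against both controls and LARS and YARS against HUWE1-P cells were called every time; of 252 values of called members, 233 kept their call, 19 lost it and 0 changed sign. These numbers include the FDR of 0.05, which used the main fit, so that no call could be lost or change sign there. They also include omissions of libraries from the line outside a comparison, which touch it only through the shared fit. With DESeq2, 5 synthetases were called against HUWE1-P cells and 3 against HUWE1-WT cells, beside 9.59% and 8.79% of all genes; IARS2 (adjusted p = 0.0206), HARS2 (0.0138 and 0.0126) and TARS2 (0.0761) lost their calls. Against HUWE1-WT cells the count was 8 with a transcript length trend removed (16.9% of all genes), and 8 with the replicate block besides (17.1%). At an FDR of at most 0.05 the counts were 11 and 9 (26.4% and 24.4% of all genes). With each library omitted in turn they ran from 5 to 8, from 4 to 5 and from 0 to 0 in the 3 comparisons. The shares of all genes called then ran from 12.9% to 17.8%, from 12.1% to 15.6% and from 0.00881% to 0.167%. Without HUWE1-P replicate 1, 5 were called against HUWE1-P cells (13.2% of all genes).

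The median log2 fold change of the 38 genes stayed near 0 throughout. Against HUWE1-P cells it was -0.036 with total counts and 0.0075 with at least 10 counts in every library, which left WARS2 out; omitting libraries gave -0.012 to 0.023. Against HUWE1-WT cells it was 0.0011 with total counts, 0.013 with the length trend removed and 0.012 with the replicate block besides, and 0.011 to 0.036 with libraries omitted. Between HUWE1-WT and HUWE1-P cells it was -0.021 with the length trend removed and -0.022 with the replicate block besides, and -0.028 to 0.0053 with libraries omitted. The cause of these shifts was not tested. Correlations of deviations between same-numbered libraries were small (-0.02 to 0.06). With the replicate block 8, 7 and 0 synthetases were called, beside 17.8%, 16.2% and 0.0617% of all genes (17.0%, 15.5% and 0.0617% without it). AARS was added against HUWE1-P cells and LARS and YARS against HUWE1-WT cells. Counts were lowest for WARS2, and no fit tested depth.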
